A study of Caenorhabditis elegans with 4 samples.

Results

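In the peak table deposited for MSTR-1, an RNA peak was taken when the scaled reads of both CLIP libraries lay below those of the size-matched input. The rule took 585 of 2664 peaks, or 22% of the table. The rule compares scaled values alone and holds no allowance for counting error, which is given further on. Peaks were named by any overlap of at least 1 bp with a gene of assembly WBcel235, on either strand. Of the 585 peaks, 522 lay over exactly 1 gene, 50 over 2 genes, 6 over 3 or more and 7 over none. The 522 peaks belonged to 364 genes, of which 354 are protein-coding. A peak over exactly 1 gene is called an own peak of that gene, and the table holds 2404 of them over 1347 genes.

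All libraries came from whole young adult Caenorhabditis elegans kept at 25 °C and irradiated with UV light at 1.2 mJ/cm2, per the labels. CLIP ligates and sequences RNA that UV light has crosslinked to an immunoprecipitated protein, and eCLIP adds an input of the same size range that was not immunoprecipitated. Of 2 MSTR-1 CLIP libraries, which the design text calls biological replicates, each came from worms that carry on49, an allele of F22D6.2 on chromosome I that joins 3xFLAG to MSTR-1, and the 1 input library came from the same genotype. The fourth library was a CLIP from N2, the untagged laboratory strain, and it also was not replicated. The table does not say which CLIP column is replicate 1 or 2, so they are called libraries A and B. Whole worms were lysed, so fewer cells of a type and less RNA per cell cannot be told apart at any peak.

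Size-matched input reads follow the amount of an RNA in the lysate and how readily its fragments are cloned. An abundant RNA can therefore form a peak in a CLIP library without any enrichment over the input. In an adult worm the most abundant messenger RNAs are known to encode ribosomal proteins, elongation factors, yolk proteins, collagens and muscle proteins. Yolk is made in the intestine and taken up by oocytes, collagens form the cuticle secreted by the epidermis, and the germline is the tissue whose cells still divide in the adult.

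The table sets limits on what such peaks can look like. Its deposited fold is the sum of both CLIP values over the input, and the lowest value listed is 1.001. The mean of both CLIP libraries over the input, called the fold from here on, is therefore at least 0.50 at every listed peak. RNA depleted more strongly is not analysed here, and the 585 peaks lie in a band from 0.50 to 0.989 with a median fold of 0.670. Between 0.5 and 0.6 lay 151 peaks, between 0.6 and 0.7 there were 184, and 133 lay between 0.7 and 0.8. A further 90 lay between 0.8 and 0.9, and 27 between 0.9 and 1.

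The rule was met by different margins in each library. Library A over the input ran from 0.0418 to 0.997 with a median of 0.706, and library B from 0.170 to 0.999 with a median of 0.676. Library A was the lower at 238 peaks and library B at 347. At a typical peak the higher library exceeded the lower 1.22-fold, which is the median, and 51 peaks had libraries at least 2-fold apart. Outside the set, 348 peaks lay below the input in library A only, 266 in library B only and 1465 in neither. A fold under 1 was found at 221 of these other peaks.

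**Figure D1:**
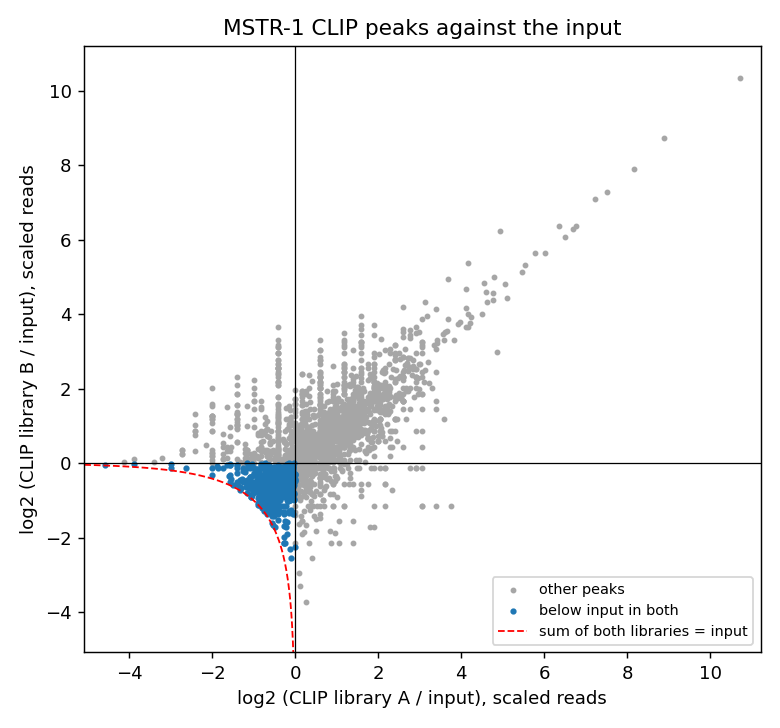
Log2 of library A (x axis) and of library B (y axis) over the input at the 2394 peaks with reads in all 3 libraries; the 585 peaks below the input in both are coloured. Those peaks fill the lower left corner, bounded by the lines at 0 and by the dashed curve on which both libraries together equal the input, a fold of 0.50.

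Read depth limits how precisely a peak can be placed. Reads inside peaks came to 2438775 for A, 3592308 for B and 408945 for the input, so the input was the shallowest. The 585 peaks held 2.51% of the peak reads of A, 2.33% of those of B and 17.1% of those of the input. Without 1 tRNA peak, over M01E10.t1, these shares were 1.41%, 1.47% and 9.47%. The 585 peaks had a median of 23, 40 and 26 reads in A, B and input, against 13, 22 and 5 at the other 2079 peaks. Per 100 nt the median was 15.1 input reads against 3.60. These contrasts in input reads follow from the rule, which favours peaks with a high input, so they are no separate evidence of abundance. Not every peak was deep, since 93 of the 585 had under 10 input reads and 214 had 50 or more.

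Few peaks were far from 1 beyond counting error. The exact 95% interval of CLIP over input lay below 1 in library A at 169 of the 585 peaks, in library B at 232 and in both at 135, which is 5.07% of the table. At 319 it reached 1 in both libraries, so a depletion was not detectable there at this depth. Of the 135 peaks, 129 had 50 or more input reads. In limma, fitted over all 2664 peaks on log2(scaled reads + 1) with Benjamini-Hochberg adjustment at 0.05, 47 peaks were called lower than the input, or 1.76% of the table, and 337 higher, or 12.7%. All 47 belong to the set, which the rule nearly fixes, since it uses the same contrast, so nothing is read from it. The same limit holds for the limma calls and adjusted p-values given below for lists and genes of the set. edgeR on the recovered reads called 33 lower, or 1.24%. The share called lower over the table was 4.52% with limma on peaks of 10 or more input reads, 5.63% with edgeR and TMM factors, 9.20% of 1011 peaks with DESeq2 and 41.7% with edgeR and total reads. These p-values hold no spread between inputs, and limma without its variance trend called 0 peaks lower. In that fit 380 peaks of the table had an unadjusted p under 0.05, but none of the 585 was lower at that level.

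The share of peaks that met the rule followed input reads, which enter the rule itself. None of the 213 peaks without an input read and none of the 564 with 1 to 3 met it. With 4 to 9 input reads 93 of 714 did, and with 10 to 29 reads 220 of 622, or 35.4%. The share was 39.8% from 30 to 99 reads and 70.2% from 100 to 299, where 120 of 171 peaks were below the input in both libraries. At 300 or more reads it was 41.9%, or 13 of 31. The 18 other peaks of that depth included 6 over ribosomal RNA genes and 4 over tRNA genes, with folds from 1.05 to 14.8.

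**Figure D2:**
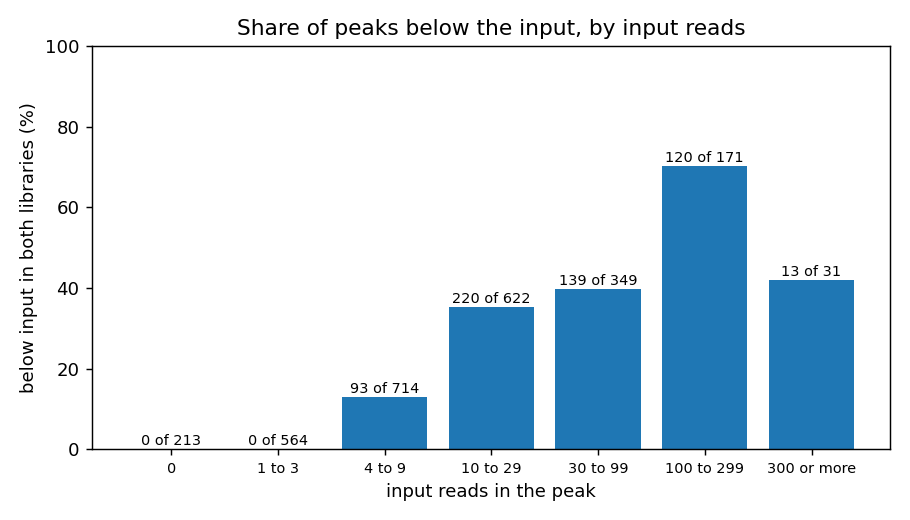
Percent of peaks below the input in both CLIP libraries (y axis) in bins of input reads per peak (x axis), with the number of peaks in each bin. The share goes from 0 without input reads to 70.2% at 100 to 299 reads and is 41.9% at 300 or more.

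Ribosomal protein genes were the largest group. Of 123 own peaks over ribosomal protein genes, 88 were below the input in both libraries, or 71.5%, beside 21.7% of all own peaks. The 88 peaks were deep, with 12626 input reads together. Among all peaks with 100 to 299 input reads the share was 70.2%. No share of a gene list given here was matched for input depth. The 88 peaks covered 60 of the 73 ribosomal protein genes with an own peak, and their folds ran from 0.501 to 0.944 with a median of 0.705. The median log2 fold over these 123 peaks was -0.35, beside 0.47 over all own peaks with input reads. limma called 23 of the 88 lower, beside 41 of all 522 own peaks of the set, by the same contrast as the rule. Ribosomal proteins listed under newer symbols, a list added after the data were seen, gave 8 of 10 peaks, 2 of them called lower.

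Both subunits of the ribosome were represented. At rps-25, a protein of the small subunit, the peak at chromosome IV 5947194-5947620 had 403 scaled reads in A, 289 in B and 637 in the input. Both CLIP values lay below the input, the fold was 0.543 and the limma adjusted p was 0.000536. At rpl-13A, a protein of the large subunit, the peak at chromosome III 3503131-3503469 had 179, 152 and 330 scaled reads in A, B and input, a fold of 0.501 and a limma adjusted p of 0.000675. It sits at the lower edge of the table, so a lower value could not have been listed.

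Other large-subunit genes showed how peaks of a gene compared. All 4 own peaks of rpl-7 were in the set, with folds from 0.510 to 0.603. The peak at chromosome I 112027-112220 had 118, 101 and 215 scaled reads in A, B and input and a limma adjusted p of 0.00364. All 3 own peaks of rpl-5 were in the set as well, at 0.545 to 0.724. For rpl-3, 4 of 5 own peaks were in the set and the lowest reached 0.505, whereas the remaining peak had a fold of 1.03. The stalk protein rplp-0 had 3 of 3 peaks between 0.607 and 0.622, the narrowest range among the genes with 3 or more peaks that are named here.

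**Figure D3:**
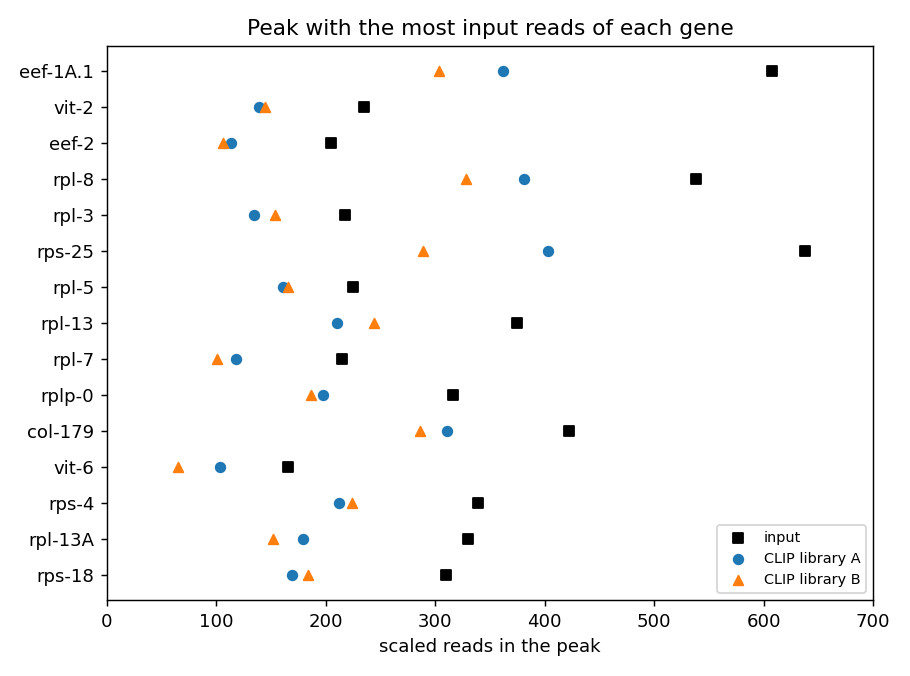
Scaled reads (x axis) in library A, library B and the input at the deepest peak in the set of each of the 15 genes with the most input reads in own peaks of the set (y axis). At all 15 genes, from eef-1A.1 to rps-18, the input lies to the right of both CLIP libraries, as the rule requires.

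Ribosomal protein genes also lay at the edge of the rule. Among peaks with at least 50 input reads, the nearest inside were rps-26, whose higher library was 0.989 of the input, and rpl-4 at 0.997. Collagen genes filled the rest of that side, with a peak over qns-1 and col-124 at 0.990, col-106 at 0.995 and col-184 at 0.996. The nearest outside were rpl-15 with K11H12.13 at 1.002, act-5, rps-27A, rps-29 with B0412.6 and rpl-26 with F28C6.11, the last 4 at 1.01. All 5 of those had folds below 1, from 0.857 for rps-29 to 0.942 for rpl-15.

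Translation factors followed the ribosomal proteins. Of 51 own peaks of translation factor genes, 27 were in the set, over 12 of 21 genes, with a median fold of 0.658. limma called 4 of them lower. The elongation factor eef-1A.1, which brings aminoacyl-tRNA to the ribosome, had 3 of 3 own peaks in the set. Its peak at chromosome III 6970979-6971232 had 362, 303 and 607 scaled reads in A, B and input, a fold of 0.548 and a limma adjusted p of 0.000918. The gene with the most input reads in own peaks of the set was also eef-1A.1, with 1247.

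Other elongation factor genes differed in how many of their peaks were in the set. At eef-2, the factor that moves the ribosome along the message, 7 of 9 own peaks were in the set, with folds over all 9 from 0.535 to 2.76. Its deepest had 113, 106 and 205 scaled reads in A, B and input, with a fold of 0.535 and a limma adjusted p of 0.00856. At eef-1B.1, a subunit of the exchange factor for eef-1A, the only own peak had 172, 134 and 265 scaled reads, with a fold of 0.576 and a limma adjusted p of 0.0131. At eef-1A.2, named here after its values were seen, 2 of 7 own peaks were in the set, and folds over all 7 ran from 0.709 to 1.26. The poly(A)-binding protein gene pab-1 had 5 of 6 own peaks in the set, from 0.575, but its deepest peak had a limma adjusted p of 0.154.

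Proteins that act as a chain leaves the ribosome were found as well, in a list added after the data were seen. Of 19 own peaks of translocon and nascent chain genes, 8 were in the set. At icd-1, a subunit of the nascent polypeptide-associated complex, the values were 49.9, 57.0 and 89.4 scaled reads in A, B and input, a fold of 0.598. Its partner icd-2 had 2 of 2 peaks in the set, at 0.588 and 0.760. At sec-61.A, the channel subunit of the translocon, 2 of 5 peaks were in the set and the lowest had a fold of 0.524. limma called none of the 8 lower.

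Yolk protein genes had the highest share of any list in the design. Of 19 own vitellogenin peaks, 15 were in the set, or 78.9%, with a median fold of 0.579 and folds from 0.506 to 0.831. limma called 5 of them lower. All 8 own peaks of vit-2 were in the set, spread over a gene of 5138 nt, with folds from 0.518 to 0.794. At its deepest peak, chromosome X 5104409-5104719, the scaled reads were 139 in A, 145 in B and 235 in the input, and the limma adjusted p was 0.0348. Of 6 own peaks of vit-6, 5 were in the set, and the one at chromosome IV 8264165-8264367 had 103, 64.9 and 166 scaled reads, a fold of 0.506 and a limma adjusted p of 0.00516. At vit-5 2 of 4 peaks were in the set, and another had a fold of 2.38 from 4 input reads.

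Other intestinal genes were spread around the input. Of 26 own peaks of the intestine list, which holds proteases, lysozymes, saposins and ferritins, 11 were in the set, over 7 of 11 genes. The aspartyl protease gene asp-1 had 253, 200 and 306 scaled reads in A, B and input at its deepest peak, and 2 of its 4 peaks were in the set. The saposin gene spp-14 had 54.3, 48.5 and 82.2, a fold of 0.625. At cpl-1, a cathepsin, 2 of 3 peaks were in the set, at 0.644 and 0.917. limma called none of the 11 lower. C-type lectins, a list added after the data were seen, had 6 of 10 peaks in the set, led by clec-63 with 3 of 4.

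Chaperone and tubulin genes were mixed. Of 53 own chaperone peaks, 20 were in the set, over 10 of 24 genes, and limma called 0 of them lower. All 4 own peaks of hsp-1, a constitutive cytosolic chaperone, were in the set at 0.614 to 0.855, and its deepest had 68.4, 78.0 and 117 scaled reads in A, B and input. A pair of its peaks overlap each other, so their reads are not independent. The ER chaperone gene hsp-3 had 5 of 9 peaks in the set and a range over all 9 from 0.596 to 2.23. At crt-1, the calcium-binding ER chaperone calreticulin, 2 of 3 were in the set. All 4 tubulin genes with own peaks had at least 1 in the set, 9 of 18 peaks in all, with tbb-2 at 91.2, 62.2 and 127 scaled reads. Tubulin genes are near-identical in stretches, so reads could be split between copies.

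Metabolic genes split by pathway. In the methyl cycle, which makes and recycles S-adenosylmethionine, 8 of 20 own peaks were in the set, led by ahcy-1 with 4 of 6. In oxidative phosphorylation 13 of 59 were, a share of 22.03% that is near the 21.7% of all own peaks. That list lacks the genes of respiratory complex I under newer symbols. Those genes, a list added after the data were seen, had 6 of 19 peaks in the set, or 31.6%. At ant-1.1, the mitochondrial ADP/ATP carrier, the values were 142, 129 and 200 scaled reads in A, B and input. Glycolysis had 2 of 24 peaks in the set, aldo-2 at 0.906 and pgk-1 at 0.808. The citric acid and glyoxylate cycles had 5 of 55, fat metabolism 2 of 27 and the V-ATPase, the pump that acidifies lysosomes, 2 of 26. The proteasome and ubiquitin list had 4 of 22. limma called none of these peaks lower.

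Germline RNAs were in the set at a share between yolk and metabolism. Of 25 own peaks of the oocyte and eggshell list, 12 were in the set, over 10 of 16 genes. At perm-2, an eggshell protein, both own peaks were in the set, and the deeper had 28.2, 40.6 and 60.6 scaled reads in A, B and input, a fold of 0.568. At cey-2, a Y-box RNA-binding protein, the values were 48.9, 26.2 and 63.5, a fold of 0.591, and library A was the nearer to the input. Germ granule genes had 5 of 11 own peaks in the set. The lowest was car-1 at 34.7, 24.9 and 57.7 scaled reads and a fold of 0.517, followed by cgh-1, an RNA helicase, at 0.591. limma called none of these 17 peaks lower.

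Nuclear and nucleolar proteins were also present. Splicing and nuclear RNA-binding genes had 6 of 17 own peaks in the set. Of nucleolar genes, a list added after the data were seen, 12 of 16 peaks over 6 of 6 genes were in it. All 3 own peaks of fib-1, the methyltransferase of box C/D particles that is on both lists, were in the set at 0.592 to 0.805. At nucl-1, the nucleolin homologue, 3 of 6 were, and the deepest had 52.1, 56.3 and 86.5 scaled reads in A, B and input. limma called none of these lower.

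Sperm and histone RNAs had shares below or near the 21.7% of all own peaks. Of 32 own major sperm protein peaks, 5 were in it, or 15.6%, and the median log2 fold over those of the 32 with input reads was 1.09, which turned to -0.98 with total reads. Other sperm families, a list added after the data were seen, had 6 of 23, or 26.1%. The peaks over ssq-2 and ssq-4 had equal read counts, 13 in A, 12 in B and 11 in the input. Peaks over genes of unlike names, such as nubp-1 and arf-5 with 4, 19 and 9 reads, also had equal counts. Whether ssq-2 and ssq-4 share reads was not tested. Histone genes had 8 of 36 peaks in the set, or 22.2%, and the median log2 fold over those of the 36 with input reads was 2.34. Both own peaks of his-25 were in the set, at 0.556 and 0.640, and histone copies share long stretches of sequence.

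Collagen, muscle and neuronal RNAs had few peaks in the set, at median depths of 15, 28.5 and 9 input reads per own peak. Of 182 own cuticle collagen peaks, 21 were in it, or 11.5%, over 12 of 70 genes, and 3 were called lower by limma. At col-181 the peak at chromosome X 12105841-12106017 had 98.8, 85.8 and 176 scaled reads in A, B and input, a fold of 0.525 and a limma adjusted p of 0.00953. At col-179 both own peaks were in the set, and the lower had 78.2, 85.8 and 143 scaled reads, a fold of 0.574 and a limma adjusted p of 0.0457. The third collagen peak called lower lay over col-143, with a fold of 0.571, and was chosen for naming after its value was seen. Basement membrane genes had 5 of 66 peaks in the set, including 2 of 18 of emb-9 at 0.827 and 0.989.

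Muscle stood lowest among the tissues with many peaks. Of 108 own peaks of muscle genes, 2 were in the set, or 1.85%, and both lay over actins. The act-2 peak had 81.4, 79.3 and 93.7 scaled reads in A, B and input, and the act-5 peak 15.2, 15.1 and 23.1. Actin copies are near-identical, and act-5 is known as the actin of intestinal microvilli. The 9 own peaks of neuronal genes included none in the set. The median input depth of muscle peaks was 28.5 reads, beside 27 for the peaks of the intestine and yolk lists.

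Grouped by tissue, 26 of 45 own peaks of the intestine and yolk lists were in the set, or 57.8%, and 17 of 36 of the germline and oocyte lists, or 47.2%. The epidermis, represented by the cuticle collagen list alone, had a share of 11.5%, and the muscle list had 1.85%. Sperm, represented by the major sperm protein list alone, had 15.6%, while the other sperm families, not counted there, had 26.1%. These shares depend on how the libraries are scaled to each other, and against the authors' factors the median log2 fold of all peaks with input reads, 0.47, moved by -0.44 with TMM factors, -0.40 with DESeq2 factors and -2.07 with total reads. With TMM factors 979 peaks of the table were below the input in both libraries. The count was 960 with DESeq2 factors and 2051 with total reads. All 585 peaks met the rule under each. That was fixed in advance, since each of these scalings lowers CLIP against the input, so it is no check on the set. Muscle then had 15, 15 and 87 of 108 peaks below, collagens 33, 32 and 125 of 182, and ribosomal proteins 110, 110 and 123 of 123. The order of ribosomal protein over collagen over muscle genes in the share of peaks below the input was kept except with total reads, where muscle passed collagens. The median log2 fold of ribosomal protein peaks was -0.79, against 0.03 for all peaks, with TMM factors. It was -0.75 against 0.07 with DESeq2 factors and -2.43 against -1.60 with total reads. A factor moves all peaks of a library alike. The gap between these medians was therefore nearly fixed in advance and is no check on the scaling.

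**Figure D4:**
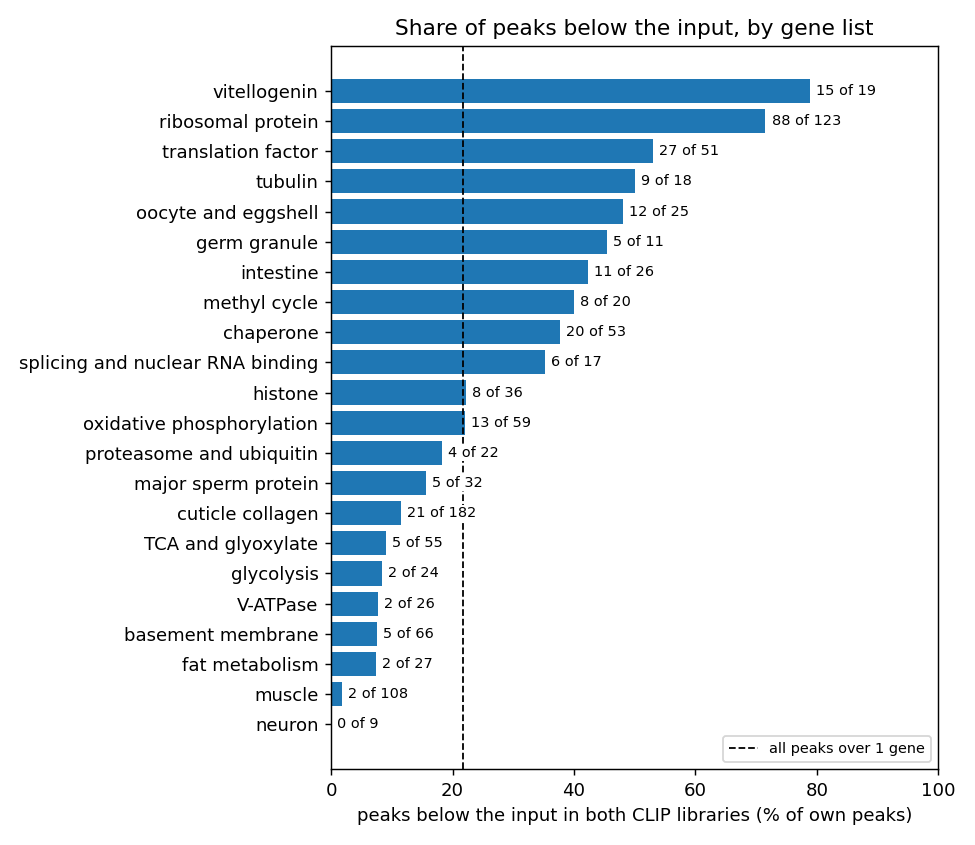
Percent of own peaks below the input in both CLIP libraries (x axis) for each gene list (y axis), with the counts beside each bar; the dashed line marks the 21.7% of all own peaks. Vitellogenin (78.9%) and ribosomal protein (71.5%) genes have the longest bars among lists of the design, and muscle (1.85%) and neuron (0 of 9) the shortest.

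The deepest peak of the set lay over a tRNA. The peak at chromosome III 2032511-2032597, over M01E10.t1 and the non-coding gene M01E10.5, had 29637 scaled reads in A, 20480.4 in B and 49636.5 in the input. Its 34416 input reads were 49.3% of all input reads of the set. The libraries were 0.597 and 0.413 of the input, the fold was 0.505 and the limma adjusted p was 0.000375. Without this peak the set held 35463 input reads.

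Other tRNA peaks were on both sides of the input. Of 52 peaks over a tRNA gene, 16 were in the set, or 30.8%. The next deepest, over F52E10.t5, C39D10.t2 and M02F4.t2, had folds of 1.39, 1.44 and 1.57 and were above the input in both libraries. In the set were ZK154.t3, with 430, 358 and 469 scaled reads in A, B and input, and a peak over nhr-41 and Y104H12A.t1 with 188, 167 and 284, a fold of 0.625 and a limma adjusted p of 0.0411. Many tRNA genes have identical copies, so a read's place among them is uncertain and these peaks name a sequence more than a locus.

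Further non-coding genes with own peaks in the set were few. They were 2 ncRNA genes, F08G2.12 and F22H10.10, the snoRNA gene C14E2.12 with a fold of 0.617, and the 5S rRNA copy rrn-4.2 with 32.6, 52.4 and 66.3 scaled reads. Of 56 peaks over 2 or more genes, 13 included a snoRNA and 9 a collagen. For 8 of them a snoRNA lay with a ribosomal protein gene, where the host message and the snoRNA cannot be told apart by position. The deepest such pair was rpl-4 with B0041.9, at 344, 328 and 456 scaled reads in A, B and input.

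Of the 7 peaks over no gene, 5 lay in or within 1000 nt of the ribosomal RNA genes of chromosome I. The deepest, at chromosome I 15064043-15064283, lay between the annotated genes rrn-1.1, which ends at 15063836, and rrn-2.1, which starts at 15064301. It had 299, 329 and 443 scaled reads in A, B and input, a fold of 0.709. The peak at 15068856-15069097 lay between rrn-3.1 and rrn-1.2 and had a fold of 0.762. The deep peaks inside rrn-3.1 and rrn-1.2 had folds above 1, up to 14.8 at 15068016-15068348.

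Peaks of the same gene often fell on both sides of the rule. Of 517 genes with 2 or more own peaks, 292 had none in the set, 50 had all and 175 had some. In the mixed protein-coding genes, 174 in number, the 265 peaks of the set had a median of 22 input reads and the other 348 a median of 10. Of 5 bins of equal length along the gene, the outer ones held 38.5% of the former and 46.8% of the latter. limma called 12 of the 265 lower than the input, beside 1.76% of the table, and 20 of the 348 higher, beside 12.7% of the table. The rule uses the same contrast, so nothing is read from these counts.

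Single genes show the pattern along a message. At atp-1, the alpha subunit of ATP synthase, 4 of 7 own peaks were in the set, and all 4 lay between outer peaks at 1.58 and 2.79. Among the 4 lay another peak outside the set, with a fold of 1.21 and 82 input reads. The outer peak at chromosome I 12654505-12654614 had 58.6, 45.9 and 18.7 scaled reads in A, B and input and a limma adjusted p of 0.00481. At eef-2 the 2 peaks outside the set were next to each other at one end of the gene, with folds of 2.76 and 1.39 from 3 and 8 input reads. At bcf-1 8 of 12 peaks were in the set and the other 4 had folds from 1.01 to 1.26. Only col-181 had both a peak called lower and one called higher by limma, the latter at 49.9, 49.8 and 15.9 scaled reads in A, B and input with an adjusted p of 0.00163.

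**Figure D5:**
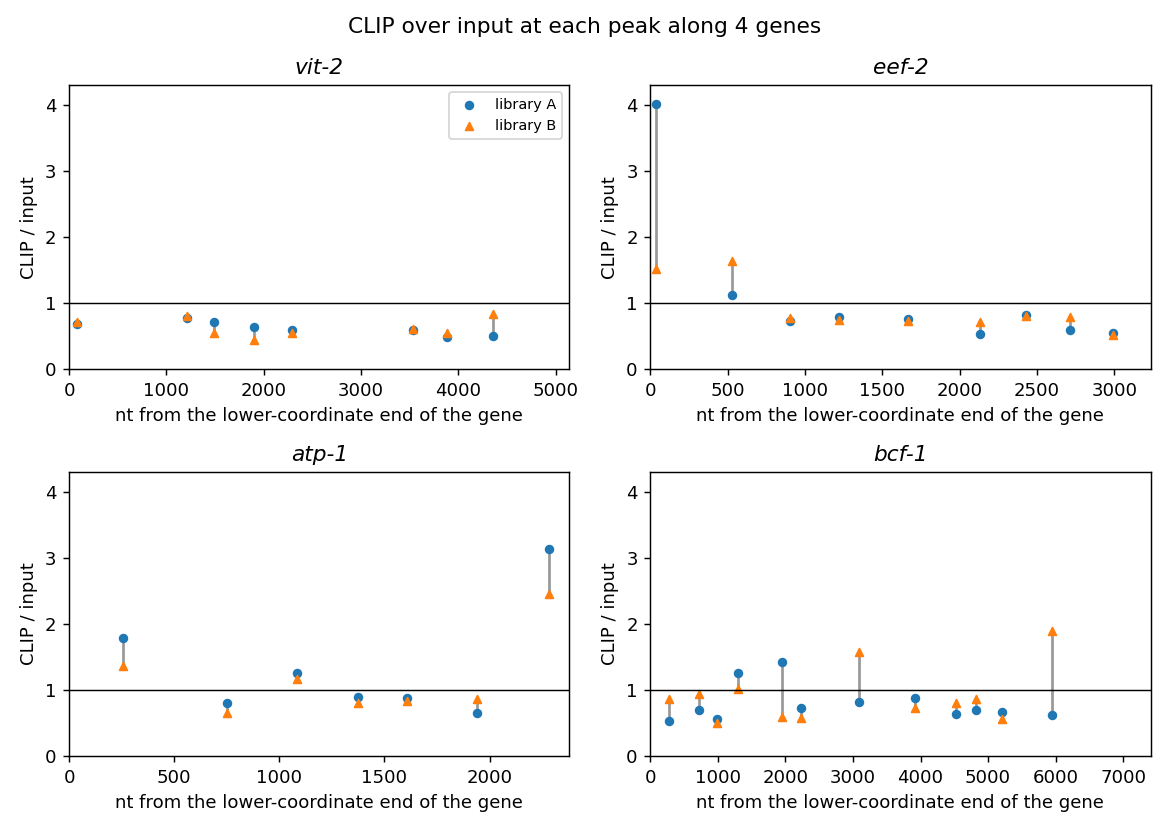
Library A and library B, each over the input (y axis), against the distance of each own peak's centre from the gene's lower coordinate in nt (x axis) for atp-1, bcf-1, eef-2 and vit-2. Colours mark the library. All 8 vit-2 peaks lie below 1 in both libraries. An end peak of atp-1 lies at 3.13 in A and 2.45 in B, and one of eef-2 at 4.02 and 1.51.

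The position of peaks within genes is described without a test. In the direction of the strand listed for the peak, the 512 own protein-coding peaks of the set fell 18.2%, 21.7%, 16.99%, 18.4% and 24.8% in successive bins (5 of equal length) along the gene. The 1837 other peaks fell 18.3%, 17.9%, 17.5%, 15.8% and 30.5%. Gene strand and exons are not part of the gene table used here, so a peak cannot be placed in an exon, an intron or a UTR. Peaks of the set were longer, with a median of 190 nt against 157 nt, and lay over shorter genes, with a median of 1598 nt against 2249 nt.

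The chromosomes differed in share. The highest were I with 131 of 500 peaks, or 26.2%, IV with 25.9% and III with 25.4%. Chromosome V had 20.1%, II 16.8% and X 15.2%, and none of the 7 mitochondrial peaks was in the set. No test was made, since peaks of a gene share their source.

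RNA also recovered without the tag can be read from the N2 table. Its folds divide by the control column of that table, read as the same input library that the rule uses, so a peak chosen for high input is less likely to be listed there and the shares are a description only. Of the 585 peaks, 31 overlapped an N2 peak on the same strand, or 5.30% with an exact 95% interval of 3.63 to 7.44. Of the other 2079 peaks 202 did, or 9.72% with an interval of 8.48 to 11.1. With 10 or more input reads the shares were 6.10% and 23.5%, and with 100 or more they were 8.27% and 40.6%. The intervals cover counting error only. The N2 table lists only folds above 1 over the input and comes from 1 library scaled separately, so no test between the sets was made.

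The N2 fold at these 31 peaks, as the authors deposited it, had a median of 1.28 and a range from 1.02 to 4.77, against a median of 3.97 at the other peaks. At 10 or more input reads the medians were 1.28 and 2.99, and at 100 or more they were 1.15 and 1.43, so the gap was smaller at like depth. Translation genes were again among the deepest. The N2 fold was 1.03 at rpl-32, 1.04 at rpl-27, 1.03 at ubq-2 and 2.29 at rpl-23, a set of ribosomal protein genes. At the eef-2 peak that limma called lower, the N2 fold was 1.38, and at col-42 it was 1.26. None of the 16 tRNA peaks of the set overlapped an N2 peak, beside 11 of all 52 peaks over a tRNA gene. At the 5.30% share of the whole set, 16 peaks are too few to read anything from that count.

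Beyond the lists, 209 own peaks of 167 genes belonged to no list, and 129 of these genes had under 30 input reads in them. Some of the lowest well-covered folds were here. At tct-1, the homologue of translationally controlled tumour protein, 41.3, 45.9 and 86.5 scaled reads in A, B and input gave a fold of 0.503 and a limma adjusted p of 0.0392. At vig-1, a homologue of a Drosophila RNA silencing factor, the values were 73.8, 59.6 and 128, a fold of 0.520 and a limma adjusted p of 0.0183. At bcf-1 they were 53.2, 47.2 and 95.2, with a limma adjusted p of 0.0457. The glutamate dehydrogenase gene gdh-1 had 5 of 6 own peaks in the set, and its deepest, at 101, 84.5 and 153, had a limma adjusted p of 0.0704. The RNA of the tagged gene, mstr-1, was not in the set, with 21, 29 and 10 reads in A, B and input and a fold of 1.45.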

How the data were processed

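The authors deposited peak tables for MSTR-1 CLIP and N2 CLIP. The tools were cutadapt, UMI-tools, STAR and deepTools, per the submitters' processing notes. Their versions, the peak caller with its thresholds and the genome build were not given in the sources used here. The deposited library columns hold a signal, which is a peak's reads over a size factor for its library (0.921 for A, 1.53 for B, 0.693 for the input). For MSTR-1, 100% of values were whole multiples of that factor's step within 0.02 read, so whole reads were recovered. The deposited fold is a ratio, the sum of both CLIP columns over the input, while folds in the text use their mean. The N2 table holds scaled signal as the authors deposited it, with a scaling that is not stated.

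Peaks were named with the RefSeq gene table of WBcel235, leaving out 15363 piRNA genes. At a shift of 0 nt 64 peaks covered 90% or more of some short RNA gene, against 4 to 20 at shifts of 50 to 1000 nt. Coordinates are as deposited. limma 3.58.1 in R 4.3.3 was fitted with a variance trend on log2(scaled reads + 1), and a log2 change on that scale understates that of low peaks. The plan allowed edgeR for raw counts, but the values are scaled. edgeR 4.0.16 and DESeq2 1.42.0 were run on the recovered reads. Intervals of a CLIP over input ratio are exact 95% intervals of the reads.

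The members and gene lists were chosen with earlier results of these data known. Named were genes with the most input reads (15) or member peaks (10), the 10 lowest folds with at least 50 input reads, the 5 peaks with at least 50 input reads nearest each side of the threshold, up to 4 genes per list or non-coding class, up to 10 peaks with an N2 peak, up to 5 genes with all peaks or mixed peaks in the set, up to 5 peaks over no or several genes, and mstr-1.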

Additional observations from a re-analysis of the deposited data

How the results depend on the processing

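The number of peaks below the input in both libraries, 585, was 979 with TMM factors, 960 with DESeq2 factors, 2051 with total reads, 317 when both libraries had to be at or below 0.8 of the input and 135 when both counting intervals had to lie below 1, an alternative chosen after seeing the data. It was 851 to 933 when 1 CLIP library alone had to lie below. The cause was not tested. Peaks of the set called lower, 47 in limma, numbered 92 in DESeq2, 150 in edgeR with TMM, 542 in edgeR with total reads and 0 in limma without a variance trend. Pseudocounts of 0.5 and 5, a minimum of 10 input reads and edgeR with the authors' factors gave 33 to 53. The share with an N2 peak was 2.74% when 50% of the peak had to overlap. All ribosomal protein counts stayed within 1.5 times the 88 reported, at 90 to 100 with 1 CLIP library alone. Leaving a CLIP library out of limma leaves 1 against 1 with no residual degrees of freedom, so that was not run. No paired analysis was possible because the input is 1 library and the CLIP columns carry no replicate number. The 1 input library and its shallow reads limit every fold.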
